A study of Mus musculus with 2 samples.

Results

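The 10 genes of transforming growth factor beta (TGF-beta) signalling described here were followed across the cell types of embryonic mouse skin and stand among 32285 genes in the deposited matrices. They were chosen by name for their roles in the pathway, and no measured value enters the rule, though earlier results of these data were known. They comprise the 3 ligand genes (Tgfb1, Tgfb2 and Tgfb3), Ltbp1, which encodes a binding protein of the latent ligand, the 3 receptor genes (Tgfbr1, Tgfbr2 and Tgfbr3), and 3 genes known as responders to the pathway (Ccn1, Ccn2 and Tgfbi). Skin of the back and flank was taken at stage E14.5, while hair follicles begin to form, and profiled by droplet-based single-cell RNA sequencing of transcript 3' ends. A single library came from wildtype embryos and 1 from littermates labelled Wntless mutant. These came from a cross of K14Cre mice, whose Cre recombinase is active in epidermal keratinocytes, with Wntless fl/fl mice. Wntless (Wls) is needed for the secretion of Wnt ligands. Each library pooled 2 to 3 embryos, and whether the wildtype embryos carried the Cre or the floxed allele is not given in the sources used here.

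TGF-beta ligands are secreted in a latent complex that latent TGF-beta binding proteins tether to the extracellular matrix, and integrins or proteases release the active form. The active ligand binds the type 2 receptor (Tgfbr2), which recruits and phosphorylates the type 1 receptor (Tgfbr1), while betaglycan (Tgfbr3) is a co-receptor that presents ligand, TGF-beta 2 above all. Signal then passes to the transcription factors SMAD2 and SMAD3. In skin the pathway is known for restraining keratinocyte growth and for driving matrix production by fibroblasts, and TGF-beta 2 is known as a regulator of early hair follicle growth.

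With 1 library per genotype there is no replicate check, so no test was made. Cells are not replicates, embryos within a pool cannot be separated, and every interval below is a 95% interval for counting error only. The wildtype library held 9065 barcodes with a median of 11341 unique molecular identifiers (UMIs, which count captured transcripts), and the mutant library 10449 barcodes with a median of 14602. Dermal cells were those on the authors' deposited barcode lists, 5300 wildtype and 5028 mutant, of which 5028 and 4885 had 4 or more of 6 fibroblast markers. Epidermal cells were those with 4 or more of 6 epidermal markers, 423 wildtype and 144 mutant, and their median depths were 14684 and 23477.5 UMIs. Other classes, among them cells off the dermal lists with 4 or more fibroblast markers, needed 4 markers of their own list and ranged from 16 erythroid cells to 405 of these off-list cells in the wildtype library. The libraries share 19 barcodes, 9 of them in a class in both. A level is a gene's UMIs divided by the UMI total of its class and scaled to 1000000 (CPM). Levels are compared between classes for 1 gene and not between genes. The targeted gene followed the labels: Wls had 891 UMIs in wildtype and 3 in mutant epidermis, 132 and 0.816 CPM, a log2 ratio of mutant over wildtype of -7.34 (-9.62 to -5.79). In the dermis Wls stood at 91.8 and 77.0 CPM.

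Sequences upstream of the transcription start were available from RefSeq (GRCm38.p6) for 7 of the 10 genes, in 9 windows of 250 bases. Those of Tgfb1, Tgfb2, Tgfbi and Ccn1 are shown 5' to 3' and end just before the start, with matches to the searched motifs in capitals. Ccn2 had no window, and the 2 windows of Ltbp1 are among those not shown. Tgfb1 lies at chr7:25686752-25687001 on the + strand, Tgfb2 at chr1:186705990-186706239 on the - strand, Tgfbi at chr13:56609336-56609585 on the + strand and Ccn1 at chr3:145649986-145650235 on the - strand.
Tgfb1: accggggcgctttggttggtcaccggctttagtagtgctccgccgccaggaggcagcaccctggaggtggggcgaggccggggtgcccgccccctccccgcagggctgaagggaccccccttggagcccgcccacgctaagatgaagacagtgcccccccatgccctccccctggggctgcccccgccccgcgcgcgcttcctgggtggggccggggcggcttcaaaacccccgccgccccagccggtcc
Tgfb2: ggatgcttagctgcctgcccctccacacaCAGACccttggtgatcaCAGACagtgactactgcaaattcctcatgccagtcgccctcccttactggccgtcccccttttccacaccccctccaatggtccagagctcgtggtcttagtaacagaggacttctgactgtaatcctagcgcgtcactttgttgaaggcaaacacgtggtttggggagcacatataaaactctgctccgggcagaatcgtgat
Tgfbi: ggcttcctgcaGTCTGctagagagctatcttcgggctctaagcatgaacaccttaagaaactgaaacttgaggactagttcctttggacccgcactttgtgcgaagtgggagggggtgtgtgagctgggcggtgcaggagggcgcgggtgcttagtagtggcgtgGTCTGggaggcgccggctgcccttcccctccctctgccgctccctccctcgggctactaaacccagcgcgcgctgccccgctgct
Ccn1: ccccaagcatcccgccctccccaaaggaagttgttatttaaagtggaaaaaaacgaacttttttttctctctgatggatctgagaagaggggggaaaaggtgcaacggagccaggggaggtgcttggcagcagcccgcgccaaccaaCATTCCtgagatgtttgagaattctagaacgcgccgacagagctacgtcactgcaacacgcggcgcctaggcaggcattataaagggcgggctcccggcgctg
Both strands were searched for CAGAC (the SMAD core), CATTCC (TEAD, the DNA partner of YAP), CTTTGA (TCF and LEF, which act in Wnt signalling) and TGANTCA (AP-1), and no 2 of these motifs overlapped in the windows shown. The Tgfb2 window holds CAGAC at 221 to 217 and at 204 to 200 bases before the start. The Tgfbi window holds it on the other strand, printed as GTCTG, at 239 to 235 and at 85 to 81 bases. The Ccn1 window holds CATTCC at 103 to 98 bases, and the Tgfb1 window holds none of the 4 motifs. CAGAC was in 42.2% of all 32841 windows of this length, CATTCC in 12.6%, CTTTGA in 13.8% and TGANTCA in 6.75%. No window of the 7 genes held CTTTGA or TGANTCA. A match is a description of these letters and shows neither binding nor activity.

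The ligand genes were found in different cells. Tgfb1 was highest in the blood-derived and vascular classes. It stood at 172 CPM (158 to 186) in wildtype and 179 (168 to 189) in mutant macrophages, at 164 and 160 CPM in mast cells, and at 108 and 118 CPM in endothelium. Macrophages and mast cells overlapped in their intervals, and both lay above wildtype endothelium. Wildtype epidermis followed at 22.7 CPM and the dermis at 16.7 CPM, while muscle held 3 UMIs in each library. With every cell thinned to 8000 UMIs, 71.8% of wildtype macrophages had a Tgfb1 UMI (87.6% before thinning), against 0.272% of muscle cells (0.809% before), whose median depths were 15010 and 17643 UMIs.

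Tgfb2 was highest in skeletal muscle cells, at 115 CPM (107 to 123) in wildtype and 109 (102 to 116) in mutant. Mural cells, which wrap small vessels, came next at 54.3 and 47.3 CPM, and wildtype epidermis was at 44.5 CPM, with an interval that overlapped that of wildtype mural cells. Macrophages held 1 and 9 Tgfb2 UMIs and mast cells 0 and 1. Thinned shares of cells with a UMI were 53.0% in wildtype muscle (74.4% before thinning) and 0.485% in wildtype macrophages (0.461% before). Muscle itself was divided by Myog (myogenin), a factor of differentiating muscle cells. Tgfb2 was at 152 CPM in wildtype muscle cells without a Myog UMI and at 76.7 CPM in those with one, and in the mutant at 162 and 55.0 CPM. Tgfb3 ran the other way, at 7.36 CPM without Myog and 28.2 CPM with it in wildtype, and at 7.36 and 20.3 CPM in the mutant. Over all muscle cells Tgfb3 stood at 17.7 and 13.8 CPM, over mural cells at 16.0 and 13.7 CPM, over the cells with fibroblast markers off the dermal lists at 10.4 and 7.43 CPM, and over the dermis at 4.98 and 6.79 CPM.

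**Figure D1:**
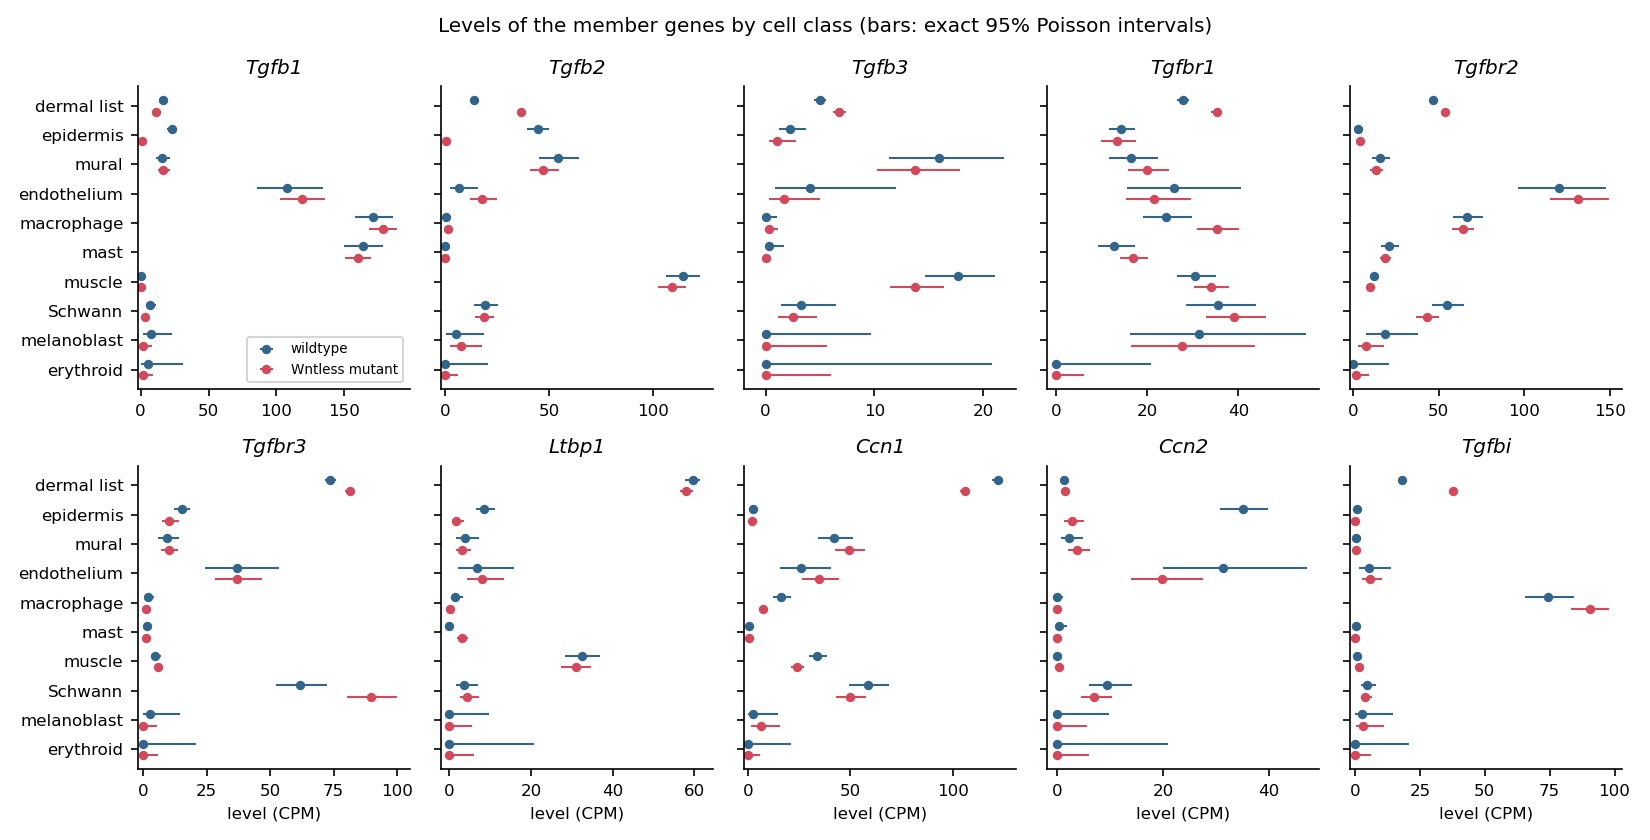
Level of each gene (x axis, CPM, a separate linear scale per panel) in 10 cell classes (y axis; the cells with fibroblast markers off the dermal lists are not drawn) of the wildtype and mutant libraries, with exact 95% Poisson intervals as bars. Among the classes drawn, Tgfb1 is highest in macrophages and mast cells, Tgfb2 in muscle, Ltbp1 and Ccn1 in the dermal list cells, Tgfbi in macrophages, and Ccn2 in wildtype epidermis and in endothelium.

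Ltbp1, which holds the latent ligand in the matrix, was highest in cells with fibroblast markers, on the dermal lists and off them. It stood at 59.5 CPM in wildtype and 58.0 CPM in mutant dermis, at 53.9 and 56.2 CPM in the cells off the lists, whose intervals overlapped those of the dermis in both libraries, and at 32.4 and 31.0 CPM in muscle. Within muscle it followed Tgfb2, at 53.3 and 52.4 CPM without Myog and at 11.1 and 9.06 CPM with it.

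The receptor genes were broader, with 1 exception in the epidermis. Tgfbr1 lay between 12.7 CPM in mast cells and 35.6 CPM in Schwann and neural crest cells of the wildtype library, outside the erythroid cells, which held no UMI. Tgfbr2 was highest in endothelium, at 120 CPM (96.3 to 148) and 132 CPM (115 to 150), followed by wildtype macrophages at 66.6 CPM, Schwann and neural crest cells at 54.8 CPM, the cells with fibroblast markers off the dermal lists at 50.6 CPM and dermis at 46.4 CPM. The epidermis held only 18 Tgfbr2 UMIs in wildtype and 14 in mutant, 2.67 CPM (1.58 to 4.22) and 3.81 CPM (2.08 to 6.39). Its Tgfbr1 was at 14.3 and 13.3 CPM. Tgfbr3 was highest in wildtype dermis, at 73.7 CPM, and in Schwann and neural crest cells, at 61.7 CPM, with overlapping intervals, and it was at 2.05 CPM or lower in macrophages and mast cells.

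The responder genes had little in common in where they were found. Ccn1, a matricellular protein gene induced by YAP and serum signals, stood at 159 CPM in the wildtype cells with fibroblast markers off the dermal lists, 122 CPM in wildtype dermis and 2.23 CPM in wildtype epidermis. Ccn2 (connective tissue growth factor), its relative, was nearly the reverse, at 35.0 CPM (30.7 to 39.8) in wildtype epidermis and 1.15 CPM (0.896 to 1.44) in wildtype dermis. Wildtype endothelium, at 31.4 CPM of Ccn2, overlapped the epidermis. Macrophages held no Ccn2 UMI in either library, where 3 counts over the class would be 0.880 and 0.457 CPM. Tgfbi, which encodes a secreted matrix adhesion protein named for its induction by TGF-beta, was highest in macrophages, at 74.5 and 90.4 CPM, and next in dermis at 17.9 and 37.6 CPM. The thinned share of wildtype macrophages with a Tgfbi UMI was 43.2% (64.1% before thinning) and that of wildtype muscle 1.36% (1.62% before).

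Targeting Wls in the epidermis was compared first in the epidermis itself. In the mutant library 2 ligand genes, the latent binding protein and 1 responder were far lower there, while the receptor genes were within 1.5-fold, though not under each alternative. Of 8 genes that reached 20 UMIs in the libraries together, 0 were at least 1.5-fold higher and 4 at least 1.5-fold lower (Tgfb1, Tgfb2, Ltbp1 and Ccn2). The median log2 ratio was -1.48. Over all 10802 genes measured in the epidermis, 7.82% were higher and 16.1% lower, with a median of -0.11.

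Tgfb2 had 300 UMIs in 423 wildtype cells and 1 UMI in 144 mutant cells, 44.5 and 0.272 CPM. That is a log2 ratio of -7.36 (-12.66 to -4.87). A Tgfb2 UMI was seen in 22.2% of thinned wildtype epidermal cells (29.8% before thinning) and in 0 of 143 thinned mutant cells, with an interval up to 2.55%. Tgfb1 had 153 and 4 UMIs, 22.7 and 1.09 CPM, a log2 ratio of -4.38 (-6.28 to -2.998). Both ligands were thus nearly unseen in mutant epidermis, and Tgfb3 was rare in both, with 15 and 4 UMIs.

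Ltbp1 had 58 and 6 UMIs, 8.61 and 1.63 CPM, a log2 ratio of -2.40 (-3.90 to -1.19). Ccn2 had 236 and 10 UMIs, 35.0 and 2.72 CPM, a log2 ratio of -3.69 (-4.77 to -2.78). The epidermis carried 54.8% of all Ccn2 UMIs of the wildtype library and 4.15% of those of the mutant library. Tgfbr1 stood at a log2 ratio of -0.10 (-0.62 to 0.41), Tgfbr2 at 0.51 (-0.61 to 1.60) and Tgfbr3 at -0.55 (-1.13 to 0.00). Tgfbr3 was past 1.5-fold lower with thinned cells (-0.81) and with at most 5% mitochondrial UMIs (-0.65). Tgfbr2 was past 1.5-fold higher under 3 alternatives, but at -0.14 without cells with 2 or more placode markers (described below). Ccn1 was at -0.03 from 15 and 8 UMIs, and Tgfbi had 5 and 0 UMIs.

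**Figure D2:**
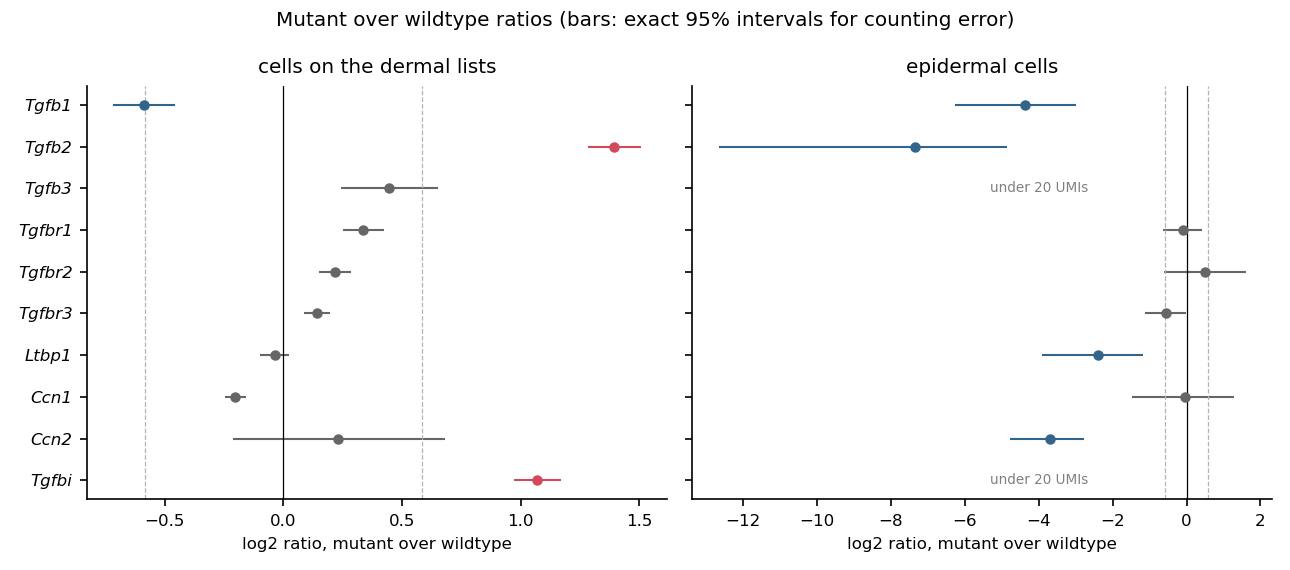
Log2 ratio of mutant over wildtype level (x axis) for each gene in dermal list cells and in epidermal cells, with exact 95% intervals for counting error. Dashed lines mark 1.5-fold, red points are at least 1.5-fold higher and blue points at least 1.5-fold lower. Tgfb2 lies at 1.40 in the dermis and at -7.36 in the epidermis.

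Hair placodes, the epidermal thickenings that begin a follicle, made up much of the wildtype epidermis and hardly any of the mutant. Cells with 3 or more of 8 placode markers numbered 194 of 423 in wildtype and 2 of 144 in mutant, so levels were also read apart from them. In wildtype, Tgfb2 was at 98.6 CPM (87.4 to 111) in placode cells and 5.62 CPM (3.52 to 8.50) in the other epidermal cells. Tgfb1 was at 38.7 and 11.2 CPM, Ccn2 at 53.2 and 22.0 CPM, and Ltbp1 at 12.4 and 5.87 CPM. The intervals did not overlap for Tgfb1, Tgfb2 and Ccn2, and those of Ltbp1 met between 8.65 and 8.81 CPM. Tgfbr2 had the opposite order, with 2 UMIs in placode cells and 16 in the others.

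The 4 genes were also lower in mutant epidermal cells outside the placode group, 229 wildtype and 142 mutant cells. They were picked by their values over all epidermal cells, which include these. The share of all genes lower in these cells was not computed. Tgfb1 went from 11.2 CPM in wildtype to 1.11 CPM in mutant (log2 ratio -3.34, -5.28 to -1.88), and Ccn2 from 22.0 to 2.22 CPM (-3.31, -4.56 to -2.26). Tgfb2 had 22 and 1 UMIs there (-4.34, -9.71 to -1.71) and Ltbp1 had 23 and 6 (-1.82, -3.40 to -0.48). Tgfbr1 was at 12.8 and 13.3 CPM, and Tgfbr2, with 16 and 14 UMIs, at 4.08 and 3.88 CPM (-0.07, -1.22 to 1.06). The wildtype group still held 43 cells at 2 placode markers, and the mutant 11. With these left out as well, Tgfb1 stood at -2.73 and Ccn2 at -3.03, while Tgfb2 and Ltbp1 had under 20 UMIs. Of all 9750 genes measured in the cells that remain, 7.6% were higher and 10.2% lower.

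**Figure D3:**
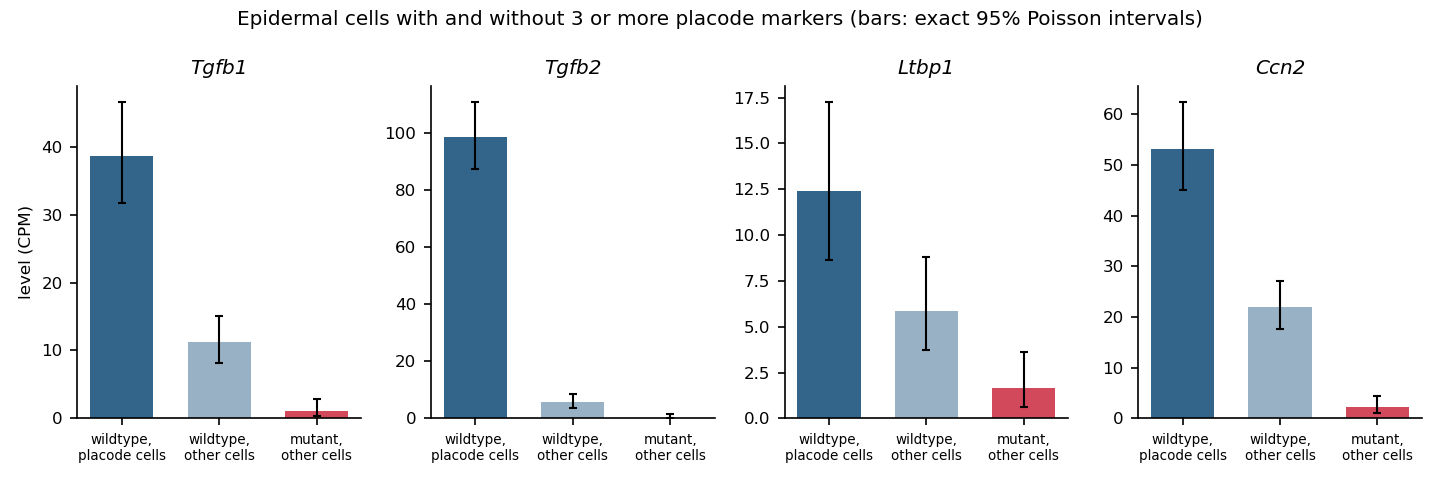
Level (y axis, CPM, from 0) of Tgfb1, Tgfb2, Ltbp1 and Ccn2 in wildtype epidermal cells with 3 or more placode markers, in the other wildtype epidermal cells and in the other mutant epidermal cells, with exact 95% Poisson intervals. Each gene has this order from high to low, and Tgfb2 goes from 98.6 to 5.62 to 0.277 CPM.

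In the dermis, which keeps Wls, Tgfb2 and Tgfbi were higher in the mutant library and Tgfb1 was lower. All 10 genes were measured: 2 were at least 1.5-fold higher, 1 at least 1.5-fold lower, and 7 were within that range, the median log2 ratio being 0.22. Over 15609 genes, 10.9% were higher and 5.64% lower, with a median of 0.03. Tgfb2 had 873 UMIs in wildtype and 2965 in mutant, 13.9 CPM (13.0 to 14.8) and 36.5 CPM (35.2 to 37.9), a log2 ratio of 1.40 (1.29 to 1.51). The thinned share of dermal cells with a Tgfb2 UMI was 8.01% and 17.2% (10.2% and 25.0% before thinning), at median depths of 11154 and 15566 UMIs. The sign was opposite to that of Tgfb2 in the epidermis. Of all Tgfb2 UMIs in a library, the dermis held 31.0% in wildtype and 57.6% in mutant.

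Tgfbi had 1125 and 3050 UMIs, 17.9 CPM (16.9 to 19.0) and 37.6 CPM (36.2 to 38.9), a log2 ratio of 1.07 (0.97 to 1.17). Its thinned share was 11.8% and 23.3% (16.6% and 37.2% before thinning). Tgfb1 was at 16.7 and 11.1 CPM, a log2 ratio of -0.59 (-0.72 to -0.46), which is on the 1.5-fold boundary and was short of it or of the other sign under 7 of 10 other ways of scaling, weighting or choosing the cells. The other genes stayed within 1.5-fold: Tgfb3 at 0.45, Tgfbr1 at 0.34, Ccn2 at 0.23, Tgfbr2 at 0.22, Tgfbr3 at 0.14, Ltbp1 at -0.04 and Ccn1 at -0.20.

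Markers of other cells were scarce on the dermal lists. Macrophage markers, whose cells are highest in Tgfb1 and Tgfbi, summed to 2.47 CPM in wildtype and 2.33 CPM in mutant. Muscle markers summed to 7.81 and 11.4 CPM and mural markers to 45.5 and 60.5 CPM, with 1 of 8 mural markers at 0 in each library, and the part of these cells in the Tgfb2 difference was not tested. Collagen UMIs (Col1a1, Col1a2 and Col3a1) were a median 1.02% of a wildtype and 1.56% of a mutant dermal cell.

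The make-up of the dermis differed between the libraries, so the same genes were read within joint clusters, named here by number and leading genes. Of these, 3 clusters were almost wholly wildtype: cluster 3 (Sfrp5, Stmn2, Dkk1, Lef1), cluster 4 (histone genes) and cluster 16 (Sox18, Foxd1, Sox2). Cluster 7 (histone genes) was almost wholly mutant, with 649 mutant and 6 wildtype cells. A cluster of 1 library may be that library and not a cell type. Tgfb2 was low in all 3 wildtype clusters, at 4.74, 7.16 and 4.07 CPM, and at 11.4 CPM in cluster 7.

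In the 5 clusters with 100 or more cells of each library, Tgfb2 was not uniformly higher in the mutant. It went from 30.5 CPM in wildtype to 88.8 CPM in mutant in cluster 1 (Aspn, Nppc), a log2 ratio of 1.54 (1.33 to 1.75). In cluster 5, led by the mitosis genes Cenpa and Cenpf, it went from 12.4 to 27.5 CPM (1.15, 0.80 to 1.502). In cluster 2 (Mfap5, Klf4) the log2 ratio was 0.58 (0.21 to 0.96) and in cluster 6 (Anxa3, Prss23) it was 0.43 (-0.04 to 0.90). Cluster 0 (Itga4, Igfbp5), with 374 wildtype and 1925 mutant cells, stood at 40.9 and 37.1 CPM (-0.14, -0.37 to 0.09). With these 5 clusters given equal weight, the Tgfb2 log2 ratio was 0.76, against 1.40 over all dermal cells. The 0.76 leaves out clusters 3, 4 and 16, with 25.0%, 21.3% and 3.91% of wildtype dermal cells. It also leaves out cluster 7, with 12.9% of mutant dermal cells. Cluster 6, with 175 wildtype and 132 mutant cells, weighs as much in it as cluster 0.

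Tgfbi was higher in the mutant in clusters 5 (13.1 to 27.8 CPM, 1.09, 0.75 to 1.43), 1 (32.7 to 59.9 CPM, 0.87, 0.67 to 1.09) and 0 (30.5 to 44.2 CPM, 0.54, 0.28 to 0.80). It was at 0.13 in cluster 6 and at -0.31 (-0.59 to -0.03) in cluster 2. Equal weights gave 0.53, below 1.5-fold. Tgfb1 was past 1.5-fold lower in 2 of the 5 clusters, cluster 6 (-1.48, -2.96 to -0.19, from 21 and 7 UMIs) and cluster 2 (-0.63, -1.47 to 0.24). It was at -0.21 in clusters 0 and 5 and at -0.11 in cluster 1, and the interval included 0 in 4 of the 5. Ccn1 was past 1.5-fold lower in clusters 0 (-0.75, -0.87 to -0.62) and 2 (-0.60) and within 1.5-fold in clusters 6 (-0.40), 1 (-0.33) and 5 (-0.15, -0.34 to 0.03). The share of all genes past 1.5-fold within each cluster was not computed.

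**Figure D4:**
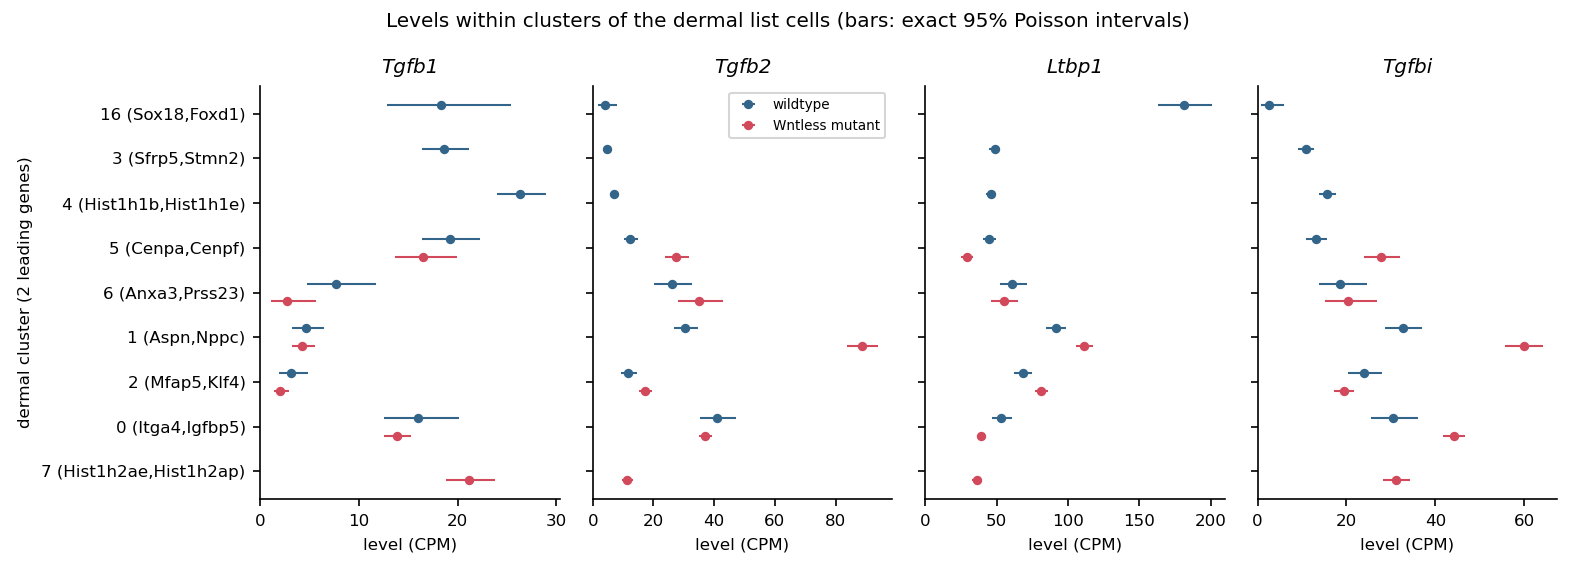
Level (x axis, CPM) of Tgfb1, Tgfb2, Ltbp1 and Tgfbi in 9 clusters of dermal list cells (y axis, cluster number and 2 leading genes), by library, with exact 95% Poisson intervals. Clusters 3, 4 and 16 show the wildtype and cluster 7 the mutant library only. The widest Tgfb2 gap is in cluster 1 (30.5 and 88.8 CPM).

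The Tgfb2 and Tgfbi differences were larger outside the lower dermis than in it. Cells with 3 or more of 6 lower dermis and fascia markers (446 wildtype, 845 mutant) had Tgfb2 at 16.0 and 20.0 CPM and Tgfbi at 20.6 and 17.9 CPM, log2 ratios of 0.32 (-0.03 to 0.68) and -0.20 (-0.53 to 0.13). In the remaining dermal cells Tgfb2 was at 13.7 and 40.2 CPM (1.55, 1.44 to 1.67) and Tgfbi at 17.6 and 41.9 CPM (1.25, 1.14 to 1.35). The intervals of the 2 parts did not overlap for either gene. Neither part was divided by the joint clusters, whose shares differed between the libraries, and the part of this in the ratios was not tested. Cells with 3 or more of 8 Wnt target markers (2717 wildtype, 1571 mutant) had lower Tgfb2 than the rest of the dermis in both libraries: 6.36 against 23.4 CPM in wildtype and 18.4 against 46.6 CPM in mutant. Tgfb1 was the other way round, at 22.4 against 9.50 CPM in wildtype and 16.1 against 8.39 CPM in mutant. Within the Wnt target cells Tgfb2 stood at a log2 ratio of 1.54, Tgfbi at 1.39 and Tgfb3 at 0.99 (0.55 to 1.43), and in the rest at 0.99, 0.71 and -0.06. The Wnt target cells were not matched between the libraries. Their median depths were 11936 UMIs in wildtype and 17536 in mutant, and 824 wildtype and 890 mutant cells held only 3 of the markers. The part of depth and marker number in these ratios was not tested.

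The dermal condensate, the cluster of fibroblasts beneath each placode, was set apart by Ltbp1. Cells with 3 or more of 6 condensate markers numbered 247 in wildtype and 0 in mutant. In them Ltbp1 was at 162 CPM (147 to 178), against 55.0 CPM (53.2 to 56.9) in the other wildtype dermal cells, and 63.7% against 32.1% of thinned cells had an Ltbp1 UMI. Lower there were Tgfb2 at 3.03 against 14.4 CPM and Tgfb3 at 0.378 against 5.18 CPM. So were Tgfbi at 3.03 against 18.5 CPM and Ccn1 at 70.8 against 124 CPM. The share of all genes that differed between these groups of wildtype cells was not computed. Ccn2 stood at 1.14 against 1.15 CPM, from 3 and 69 UMIs. Tgfb1 (20.1 and 16.6 CPM) and the 3 receptors overlapped in their intervals. Without the condensate cells, the mutant over wildtype log2 ratio of Ltbp1 in the dermis was 0.08 (0.01 to 0.14) and that of Tgfb2 was 1.35.

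Outside the dermal lists and the epidermis at most 2 of the genes per class were past 1.5-fold. Mural cells had 0 of 8 measured genes past 1.5-fold (9.8% of all genes higher, 4.82% lower) and muscle 0 of 7 (4.02% higher, 6.28% lower). In endothelium, 7 genes were measured, and Tgfb2 was higher, with 5 and 31 UMIs (log2 ratio 1.36, -0.01 to 3.08), and Ccn2 lower, at 31.4 and 19.8 CPM (-0.66, -1.46 to 0.16), beside 10.3% higher and 7.5% lower of all genes. Both intervals include 0. In Schwann and neural crest cells 1 of 9 was lower (Tgfb1, 17 and 12 UMIs, -1.06, -2.25 to 0.10; 7.21% of all genes higher, 4.77% lower). In mast cells 1 of 4 was higher (7.6% higher, 3.73% lower), Ltbp1, with 0 UMIs in 133 wildtype and 22 UMIs in 199 mutant cells. With the wildtype set at 3 counts over the class it was 3.29-fold higher. The lower limit of its log2 ratio was 1.30. The single gene measured in melanoblasts, Tgfbr1, was at -0.19, beside 14.6% of all genes higher and 8.42% lower there, and no gene was measured in erythroid cells (11.6% of all genes higher, 33.1% lower).

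Ccn1 was past 1.5-fold lower in 2 further classes. Cells off the dermal lists with 4 or more of 6 fibroblast markers, whose leading genes include haemoglobin genes and which are given no type name, had Ccn1 at 159 and 96.0 CPM (log2 ratio -0.72, -0.85 to -0.60). Ccn2 was also lower there, from 21 and 18 UMIs, so 2 of 10 genes were lower and 0 higher (8.72% higher, 3.84% lower). In macrophages 1 of 5 was lower, Ccn1, at 16.1 and 7.46 CPM (-1.11, -1.70 to -0.53; 5.26% higher, 4.33% lower). Fibroblast markers summed to 22.0 and 12.9 CPM in those macrophages, and their part in it was not tested. Within 1.5-fold were muscle at -0.49 (-0.77 to -0.22), Schwann and neural crest cells at -0.23, mural cells at 0.23 (-0.13 to 0.59) and endothelium at 0.42 (-0.35 to 1.24). Immediate-early genes, which respond to tissue dissociation as Ccn1 can, were lower in the mutant dermis in part. Of 15 measured, 3 were lower (Egr1 at -0.61, Ier2 at -0.88 and Nr4a1 at -0.91) and 1 higher (Fosb at 0.80), with a median of -0.31. Of all genes measured in the dermis, 10.9% were higher and 5.64% lower (median 0.03). The part of immediate-early genes in the Ccn1 values was not tested.

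Further genes of the pathway were read from lists, against the same shares of all genes (10.9% higher and 5.64% lower in the dermis, median 0.03). In the dermis 4 of 19 measured latency and activation genes were higher and 1 lower (median 0.22), among them the latent binding protein genes Ltbp2 at 0.72 (0.25 to 1.20) and Ltbp3 at 0.60 (0.48 to 0.72). The receptor and SMAD transduction genes, 8 of 8 measured, all lay within 1.5-fold (median -0.01). Among 9 negative regulators 1 was higher, Bambi, a pseudoreceptor that blocks the pathway (0.61, 0.45 to 0.77). Of 22 SMAD2/3 responder genes 3 were higher and 3 lower (median 0.04). Those higher were the matrix genes Postn (323 to 597 CPM, 0.89), Fn1 (311 to 500 CPM, 0.69) and Col1a1 (0.59), and those lower included Cdkn2b, a cell cycle inhibitor (41 and 14 UMIs, -1.92), and Acta2, smooth muscle actin (-0.83). Of 19 YAP/TEAD responder genes 3 were higher and 1 lower (median 0.06), with F3 (tissue factor) at 1.08, the receptor kinase gene Axl at 0.79 and Gadd45a at -1.79.

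In the epidermis, 0 of 15 measured SMAD2/3 responder genes were higher and 6 lower (median -0.46). Of all genes measured there, 7.82% were higher and 16.1% lower (median -0.11). Fn1 (fibronectin) had 396 and 10 UMIs, 58.8 and 2.72 CPM (log2 ratio -4.43, -5.51 to -3.54). Smad7, an inhibitor induced by the pathway, was at 17.2 and 5.71 CPM (-1.59, -2.34 to -0.91). In cells with fewer than 2 placode markers 1 of 12 was higher and 5 lower (median -0.50), beside 7.6% higher and 10.2% lower of all 9750 genes measured in those cells (median -0.07). There Fn1 was at -2.83 (-4.22 to -1.68) and Smad7 at -0.64 (-1.55 to 0.25). Col1a1 (-0.97) and Col1a2 (-0.89) were lower as well, beside a summed level of the 6 fibroblast markers of 18.6 CPM in wildtype and 7.07 CPM in mutant epidermis, 0 and 2 of them at 0, and the part of dermal RNA in this was not tested.

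Of 15 measured YAP/TEAD responder genes in the epidermis 6 were higher, 1 lower and 8 within 1.5-fold (median 0.51). The shares of all genes there were 7.82% higher and 16.1% lower (median -0.11). With fewer than 2 placode markers, 4 of 14 were higher and 1 lower (median 0.24), beside 7.6% and 10.2% of all genes. Over all epidermal cells Lats2, a kinase that restrains YAP, was at 1.64 (0.80 to 2.51) and Amotl2 at 1.19 (0.79 to 1.60). Axl was at 0.92 (0.41 to 1.42) and Gadd45a at -1.21 in the same cells. Of 14 latency and activation genes 5 were higher and 6 lower (median -0.03), with Fbn2 (fibrillin 2) at 2.23 (1.37 to 3.16), Ltbp4 at 0.80 and Dcn (decorin) at -1.18. With fewer than 2 placode markers 3 of 12 were higher and 1 lower (median 0.15). Over all epidermal cells, 1 of 6 transduction genes was lower (Tab1 at -0.66, median -0.44). There 1 of 8 negative regulators was higher and 2 lower, Tgif1 at -0.83 and Fkbp1a at -0.61 (median 0.02). Immediate-early genes were 3 higher and 7 lower of 14 (median -0.53), with Egr1 at -2.93 (-4.18 to -1.91).

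**Figure D5:**
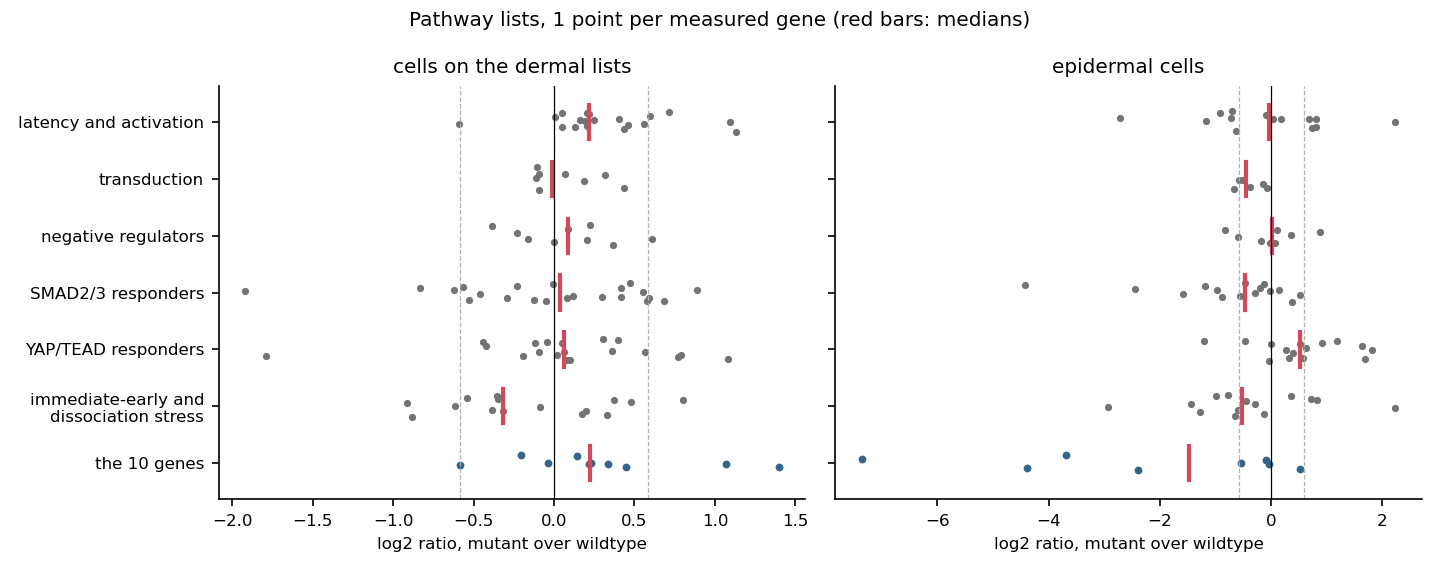
Log2 ratio of mutant over wildtype level (x axis) of each measured gene of 6 pathway lists and of the 10 genes (y axis) in dermal list cells and epidermal cells, with medians as red bars and 1.5-fold as dashed lines. Points are spread vertically at random. In the epidermis the SMAD2/3 responders have a median of -0.46 and the YAP/TEAD responders one of 0.51.

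The genes most like each member across cell classes were found by Pearson correlation of log2(CPM + 1) over 20 points, the 10 classes in each library, among 13426 genes. The points share 2 libraries and their depth, and the values are descriptions. Fes, a kinase of blood cells, was most like Tgfb1 (r = 0.93), Nkain1 most like Tgfb2 (0.88) and Stbd1 most like Tgfb3 (0.96). Among the receptors, Tgfbr1 was closest to Enpp2 (0.89), Tgfbr2 to Slc43a3 (0.90) and Tgfbr3 to Sh3gl3 (0.94). Ltbp1 was closest to Usp29 (0.96), with Bmp4, a ligand of the related BMP branch, second (0.93). Ccn1 was closest to Fndc3b (0.95), Ccn2 to Hoxb5 (0.89) and Tgfbi to Maf, a factor of macrophages (0.93).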

How the data were processed

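Per the file headers the authors ran Cell Ranger 6.1.2, and its deposited output is a matrix of raw UMI counts for each library. The submitters' processing notes name build mm10 and Seurat. How the authors chose the cells on the deposited dermal lists is not given in the sources used here. The deposited barcode and gene files give names only.

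The 10 genes and all lists were chosen with earlier results of these data known. Off the lists, cells needed 1000 genes (erythroid cells excepted) and at most 10% mitochondrial UMIs, which left out 1286 wildtype and 3044 mutant barcodes. A class needed 4 of its markers. Barcodes meeting several classes (293 and 281) or none (197 and 170) were left out. No doublet caller was run. Alternatives with at most 6000 genes or, in the epidermis only, at most 1% collagen UMIs stand in its place. Dermal cells held at most 5972 genes in wildtype and 5982 in mutant. The limit of 6000 genes thus left out no dermal cell, and the dermis has no such stand-in.

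UMIs were summed per class and library and divided by the class total (CPM). Levels have exact Poisson intervals, shares Clopper-Pearson intervals, and log2 ratios exact conditional binomial intervals, all at 95%. A gene at 0 in 1 library is set against 3 counts over the class. A gene counts as measured from 20 UMIs in the libraries together. Shares were recomputed with cells thinned to 8000 UMIs. In the dermis 791 wildtype and 255 mutant cells were shallower and left out, and in the epidermis 14 and 1. The ratio step was tested on simulated data. Joint clusters came from scanpy 1.11.5 and leidenalg 0.10.2 (2000 variable genes, 30 components, 15 neighbours, resolution 0.5), without batch correction. Named list genes are at most 4 per list, those farthest from a log2 ratio of 0 among members with at least 50 UMIs. Col1a1 in the dermis and the comparisons within muscle and suprabasal cells were singled out after their values were seen. For likeness, the 3 closest genes with 200 or more UMIs were computed over classes of 20 or more cells in each library, which left out erythroid cells. Python 3.11.15, numpy 2.4.6, scipy 1.17.1, pandas 2.3.3 and matplotlib 3.10.9 were used.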

Additional observations from a re-analysis of the deposited data

Results flagged for a closer look

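The log2 ratio of Tgfb2 differed in sign between classes. It was 1.40 in the dermis and 1.36 in endothelium (5 and 31 UMIs, interval including 0), against -7.36 in the epidermis. For Ltbp1 it was -2.40 in the epidermis and 1.72 in mast cells, with a lower limit of 1.30. There the wildtype library held 0 UMIs, set at 3 counts, and the mutant 22. Each class rests on 1 library per genotype, and these differences between classes were not tested.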

How the results depend on the processing

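Depth limits which genes can be read: 8 of the 10 reached 20 UMIs in the epidermis, 5 in macrophages, 4 in mast cells, 1 in melanoblasts and 0 in erythroid cells. No paired analysis was possible because each genotype has 1 library, and for the same reason no library could be left out. Scaling by median-of-ratios or without the 50 most abundant genes shifted every dermal log2 ratio by -0.02 and 0.02 and every epidermal one by 0.08 and 0.05. The 2 genes higher in the dermis became 1 (Tgfb2) with the shared dermal clusters weighted alike, and also 1 with those of 100 or more cells of each library, an alternative chosen after seeing the data. The 1 gene lower in the dermis (Tgfb1) became 0 with scaling without the 50 most abundant genes, with means over cells, with thinned cells, without cells with 2 or more condensate markers, with Leiden clusters named by the markers and with the shared clusters of 100 or more cells. With all 6 shared clusters weighted alike that 1 gene was Ccn2 (-1.66), and Tgfb1 reversed to 0.18, where the smallest cluster holds 26 wildtype and 43 mutant cells with 0 and 3 Tgfb1 UMIs. Without it Tgfb1 was -0.36 and Ccn2 -0.52. The dermal log2 ratio of Tgfb2 ranged from 0.66 to 1.499 over 10 alternatives and that of Tgfbi from 0.53 to 1.13. In the epidermis the 0 genes higher became 1 (Tgfbr2) with median-of-ratios scaling, with at most 5% mitochondrial UMIs and with at most 1% collagen UMIs. Tgfbr2 was at -0.14 without cells with 2 or more placode markers. The 4 genes lower became 2 (Tgfb1 and Ccn2) without cells with 2 or more placode markers. There 5 of the genes were measured, and 10.2% of all genes measured were lower. The 4 became 5 with Tgfbr3 under thinned cells (-0.81) and under at most 5% mitochondrial UMIs (-0.65). They also became 5 with Tgfb3 under no UMI minimum and under 3 or more of 6 markers. Over the alternatives the epidermal log2 ratio of Tgfb1 ranged from -4.96 to -2.73. Those of Ltbp1 and Ccn2 ranged from -2.72 to -2.25 and from -3.68 to -3.03. That of Tgfb2 ranged from -7.77 to -4.16. The -4.16 came from thinned cells, where 0 mutant UMIs were set at 3 counts, so it depends on that setting and is not a measured ratio.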

Other observations

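In the suprabasal part of the epidermis (cells with 3 or more of 6 suprabasal markers, 93 wildtype and 36 mutant), Tgfbr1 and Tgfbr3 were lower in the mutant library. The share of all genes that were lower was not computed for these cells. Tgfbr1 had 28 and 3 UMIs, 16.0 and 3.08 CPM (log2 ratio -2.38, -4.74 to -0.68), and Tgfbr3 had 30 and 6 UMIs (-1.48, -3.03 to -0.19). Tgfbr2, with 6 and 3 UMIs, was not measured there. In the other epidermal cells Tgfbr1 was at 13.6 and 17.0 CPM (0.32, -0.25 to 0.88), Tgfbr3 was at -0.29 (-0.93 to 0.33) and Tgfbr2, with 12 and 11 UMIs, at 0.76 (-0.56 to 2.07). These values rest on few UMIs, and the difference between the 2 parts was not tested.

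The dermal Ltbp1 level was alike in both libraries overall but not within the clusters: it was lower in mutant cells of cluster 5 (45.1 and 29.1 CPM, -0.63, -0.88 to -0.38) and of cluster 0 (53.4 and 39.4 CPM, -0.44, -0.64 to -0.23), and higher in those of cluster 1 (91.4 and 112 CPM, 0.29, 0.16 to 0.42).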
